A study of Mus musculus with 2 samples.

Results

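Mmp2, Mmp9, Mmp14, Mmp16, Mmp17, Mmp19, Mmp25, Timp2 and Timp3 are matrix metalloproteinase (MMP) genes and genes of their tissue inhibitors (TIMP) that lie apart from each other on 8 chromosomes, outside the MMP cluster of chromosome 9. Open chromatin at these 9 genes, of 21887 protein-coding genes with a position on the chromosomes of the peak lists, was described from ATAC-seq peaks, regions where the Tn5 transposase cuts accessible DNA. A peak was counted for a gene when it overlapped the RefSeq span of the gene plus 10 kb on either side. That gave 61 of the 128737 peaks of the WT list and 62 of the 128129 peaks of the Tle4cKO list. WT stands for male C57BL/6 mice of genotype Lyz2-Cre and Tle4cKO for male C57BL/6 mice of genotype Tle4f/f Lyz2-Cre, both 18.9 weeks old, so that both groups carry the Cre, which the Lyz2 locus drives in myeloid cells. Tle4 encodes a Groucho-type transcriptional corepressor. Colonic macrophages were sorted as Siglec-F-negative, Ly6C-low, CD64-positive cells, and the cells of 2 mice per genotype were pooled into 1 library. With 1 library per genotype there are no replicates, no test between the genotypes can be made, and each difference given here describes these libraries alone. Intervals of shares and of single ratios cover counting error only. That of a median ratio covers the spread over peaks paired between the libraries, which are not replicates.

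MMPs are zinc-dependent proteases that cut collagens, gelatin and other components of the extracellular matrix, and also chemokines and growth factors. They are made as inactive precursors, whose propeptide must be removed, and TIMPs block the active enzyme by binding to its catalytic site. In the gut, macrophages, neutrophils and fibroblasts are known sources of MMPs, which take part in tissue repair and in the tissue damage of colitis.

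RefSeq (GRCm38.p6, the assembly behind mm10) gave the promoter for 4 of the 9 genes, Mmp14, Mmp25, Timp2 and Timp3. Their 250 bases before the annotated start are shown because each promoter was overlapped by a peak in both libraries, from one of the weakest shared peaks of the set (Timp3) to strong ones (Mmp25 and Timp2). They are written 5′ to 3′ on the strand of the gene. Capitals mark matches on either strand to AP-1 (TGANTCA, where N is any base) or to a loose NF-kappaB pattern. They also mark the ETS core that PU.1 reads too (AGGAAG), RUNX (TGTGGT), TCF/LEF (CTTTGA) and the GC box (GGGCGG). The NF-kappaB pattern fixes only the G letters at its start and the C letters at its end, so it is looser than the consensus.
Mmp14, chr14:54431348-54431597, plus strand: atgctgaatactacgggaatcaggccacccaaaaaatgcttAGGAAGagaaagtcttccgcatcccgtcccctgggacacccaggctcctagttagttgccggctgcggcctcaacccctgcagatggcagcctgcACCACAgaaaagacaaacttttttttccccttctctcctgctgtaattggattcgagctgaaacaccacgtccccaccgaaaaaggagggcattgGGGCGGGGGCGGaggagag
Mmp25, chr17:23645270-23645519, minus strand: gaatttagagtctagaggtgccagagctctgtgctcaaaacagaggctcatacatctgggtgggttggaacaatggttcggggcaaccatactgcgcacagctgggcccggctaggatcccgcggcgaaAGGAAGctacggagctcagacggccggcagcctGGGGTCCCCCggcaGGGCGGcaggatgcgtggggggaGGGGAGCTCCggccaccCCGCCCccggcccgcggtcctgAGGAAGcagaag
Timp2, chr11:118355412-118355661, minus strand: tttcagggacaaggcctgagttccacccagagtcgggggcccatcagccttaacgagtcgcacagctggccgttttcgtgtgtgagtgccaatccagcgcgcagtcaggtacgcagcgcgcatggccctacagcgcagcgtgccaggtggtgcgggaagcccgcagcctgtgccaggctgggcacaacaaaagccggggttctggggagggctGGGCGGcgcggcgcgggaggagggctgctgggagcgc
Timp3, chr10:86300162-86300411, plus strand: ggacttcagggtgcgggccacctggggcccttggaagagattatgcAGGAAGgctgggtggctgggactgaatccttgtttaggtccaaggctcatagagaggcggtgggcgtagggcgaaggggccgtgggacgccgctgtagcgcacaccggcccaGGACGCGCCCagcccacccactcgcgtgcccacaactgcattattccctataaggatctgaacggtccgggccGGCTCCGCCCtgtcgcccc

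Each of the 4 promoters held a GC box, which 32.7% of the 32851 promoters of that length in the table hold. The ETS core was found at Mmp14, Mmp25 and Timp3 and in 29.5% of all promoters. The loose NF-kappaB pattern was found at Mmp25 and Timp3 and in 45.8% of all, and 1 of the 2 matches at Timp3 overlaps its GC box. The stricter NF-kappaB consensus was not searched for. A RUNX match was found at Mmp14 and in 14% of all. RUNX proteins are known DNA-binding partners of Groucho-type corepressors. The AP-1 letters (6.75% of all promoters) and the TCF/LEF letters (13.8%) were not found in these windows. GC content was 55.2% at Mmp14, 66% at Mmp25, 68% at Timp2 and 65.6% at Timp3, against a median of 52.4% over all promoters. The matches are descriptions of letters and not binding sites.

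The 9 genes differed widely in how open they were. Their order was the same in both libraries with a flank of 10 kb and all peaks of the window counted. Peaks covered 25.4% of the Mmp14 window in WT and 24.8% in Tle4cKO. The covered share was 21.3% and 21.8% at Mmp9, 20.9% and 20.8% at Mmp19, and 20.4% and 20.6% at Mmp2. It was 16.3% and 14.4% at Mmp25 and 13.3% and 11.3% at Timp2. These 6 genes lay above the median of all protein-coding genes, 7.49% in WT and 6.47% in Tle4cKO. Mmp17, with 7.66% and 8.05%, lay close to that median. Timp3, with 4.42% and 2.41%, and Mmp16, with 0.254% and 0.294%, lay below it. No spread over replicates exists for these shares. The order of the upper 6 genes changed with the flank, while Mmp17, Timp3 and Mmp16 kept ranks 7, 8 and 9 in both libraries with each of the 4 flanks tried. The windows also hold peaks nearer to other genes. Without those, the share in WT and Tle4cKO was 12.4% and 13.2% at Mmp19 and 10.3% and 7.97% at Mmp25. Mmp14 (20.9% and 20.2%) then stood above Mmp2 (15.0% and 20.6%) in WT but below it in Tle4cKO. At the high-coordinate end of Mmp2, a Tle4cKO peak of 3819 bp was kept. WT had separate peaks there, and that of 2481 bp, with its summit nearer to another gene, was left out. This change of order thus rests on how that region was divided into peaks.

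**Figure D1:**
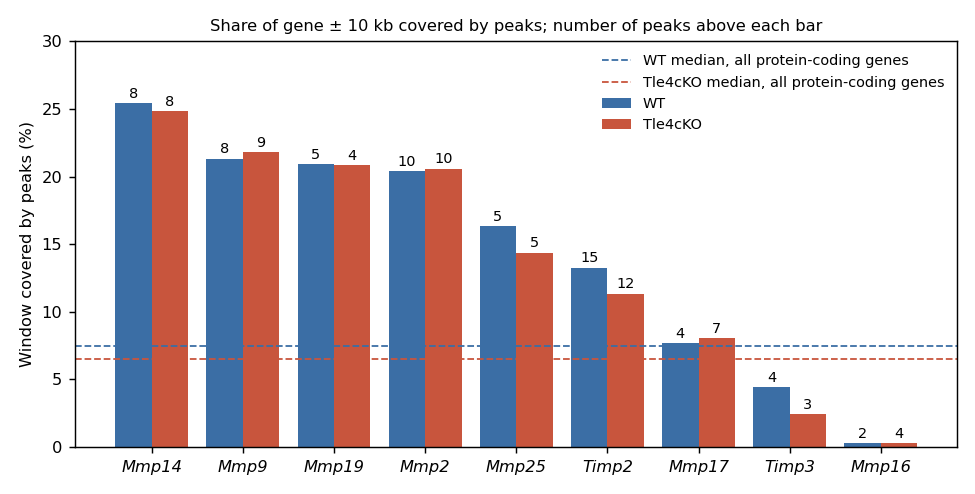
Percent of each gene plus 10 kb on either side that peaks cover, in WT (blue) and Tle4cKO (red), with the number of peaks above each bar and the median of all protein-coding genes as dashed lines. Mmp14, Mmp9, Mmp19 and Mmp2 lie above 20% in both libraries, and Mmp16 below 0.3%.

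Most peaks at these genes were shared between the libraries, where shared means an overlap of at least 1 bp with a peak of the other list. Of the 61 WT peaks 11 were WT-only, 18.0% (95% Wilson interval 10.4% to 29.5%), against 27.1% of all WT peaks. Of the 62 Tle4cKO peaks 12 were Tle4cKO-only, 19.4% (11.4% to 30.9%), against 23.5% of all Tle4cKO peaks. The interval holds the share of the whole list in both cases. Mmp2, Mmp19 and Mmp25 had no list-only peak in either library under this rule. With an overlap of at least 50% of both peaks, Mmp25 still had none, while Mmp2 had 2 WT-only and 2 Tle4cKO-only peaks and Mmp19 had 2 and 1. With the overlap of 1 bp, 5 Timp2 peaks were WT-only and 2 were Tle4cKO-only, at Timp3 2 and 1, at Mmp14 1 and 1, at Mmp17 1 and 3, at Mmp16 2 and 4, and at Mmp9 0 and 1. More WT-only than Tle4cKO-only peaks were thus found at 2 genes and the opposite at 3, where 32.6% and 22.8% of all protein-coding genes fall on these sides.

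The list-only peaks were the weak ones. The pileup, the height of the stack of sequenced reads or fragments at the summit as the authors deposited it, had a median of 11 in the WT-only and 9.5 in the Tle4cKO-only peaks, against 66 and 45.5 in the shared peaks of WT and Tle4cKO. Of the WT peaks below a pileup of 15, 8 of 8 were WT-only, and of the Tle4cKO peaks below 15, 10 of 13 were Tle4cKO-only. Over the whole lists these shares were 71.6% and 56.2%. At a pileup of 60 or more, 0 of 30 WT peaks were WT-only, which allows a share of up to 10.0%, against 0.811% of all such WT peaks. In Tle4cKO it was 0 of 17, which allows up to 17.6%, against 0.150%. Between these bands, at a pileup of 15 to 29, 1 of 9 WT peaks was WT-only (11.1%), against 25% of all such WT peaks. In Tle4cKO 2 of 16 were Tle4cKO-only (12.5%), against 7.03% of all. At a pileup of 30 to 59, 2 of 14 WT peaks were WT-only (14.3%), against 7.56% of all such WT peaks. There 0 of 16 Tle4cKO peaks were Tle4cKO-only, against 1.67% of all. The 2 WT-only peaks of that band were at Mmp14 (37) and Timp2 (40).

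**Figure D2:**
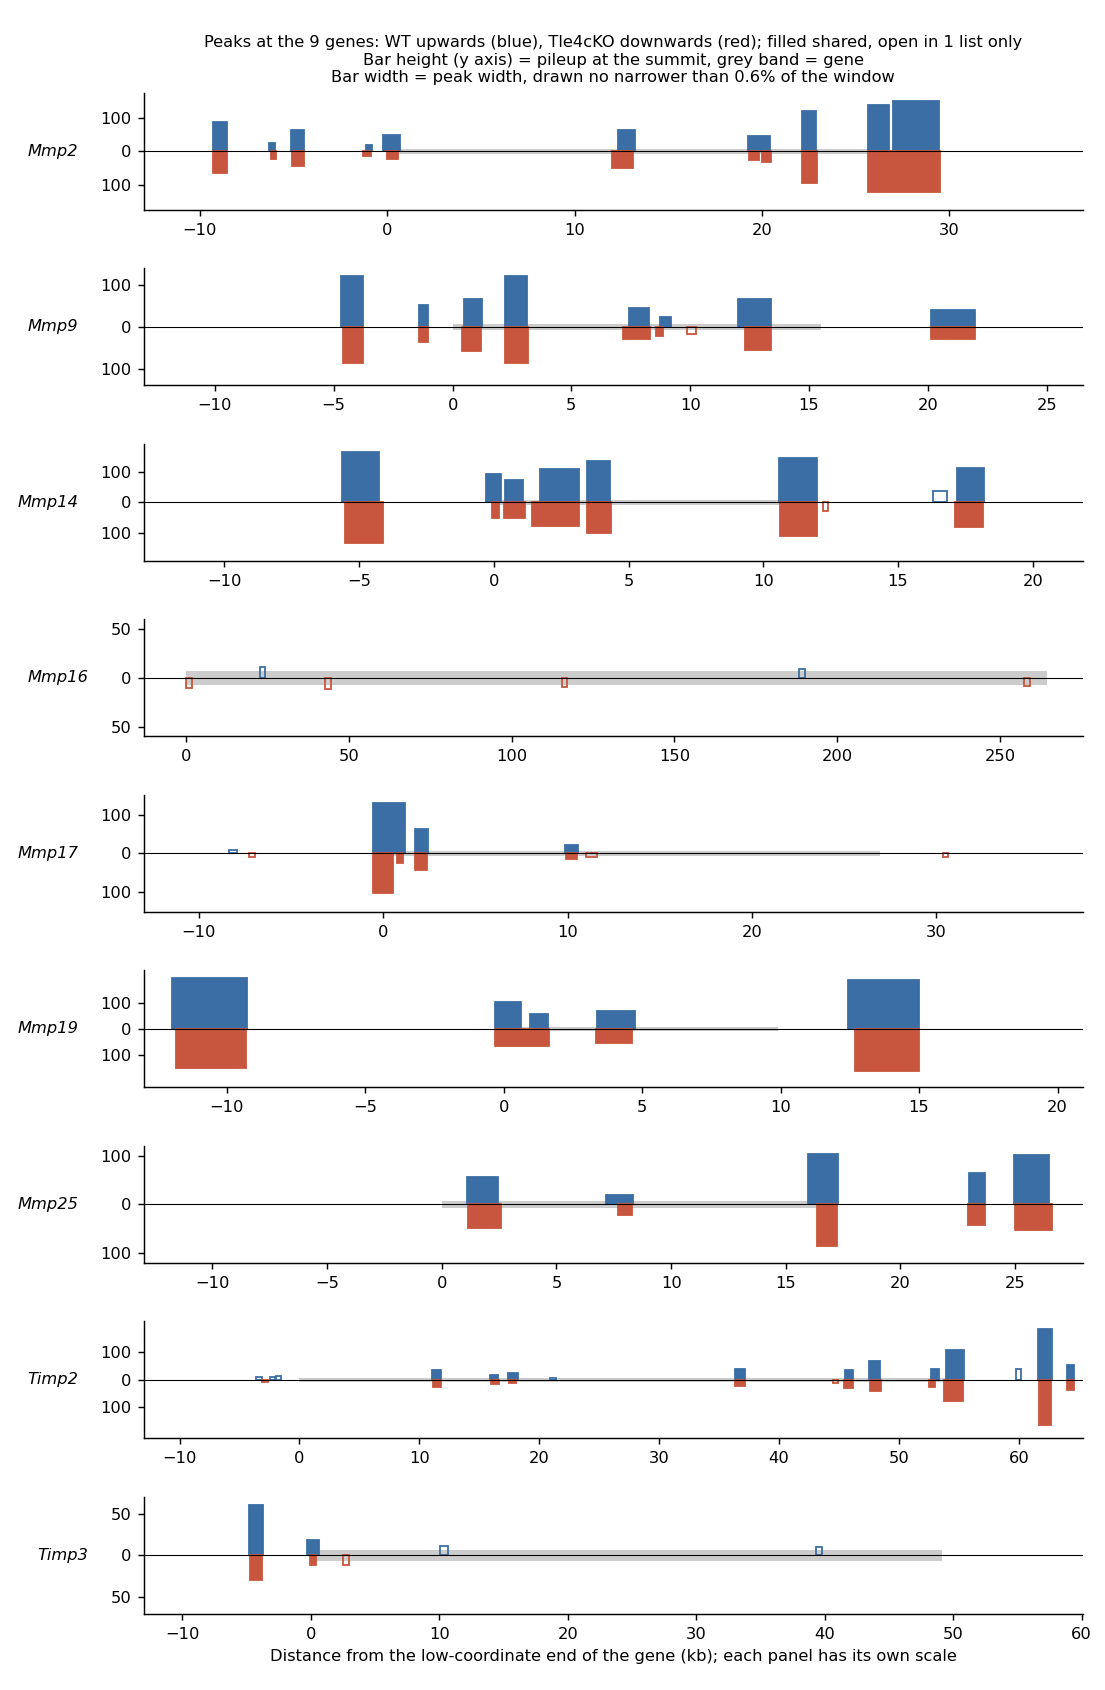
Peaks at the 9 genes by distance from the low-coordinate end of each gene (kb, own scale per panel), with pileup upwards for WT (blue) and downwards for Tle4cKO (red). Filled bars are shared and open bars are found in 1 list; the open bars reach at most 40, while shared bars reach 199.

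The shared peaks formed 48 pairs, in which each peak was the other's overlapping peak of highest pileup. Across pairs, which are not replicates, the pileups of the libraries went together, with Pearson's r of 0.967 for log2 pileup over the 48 pairs. WT had the higher pileup in 47 of them, as it had in 90.8% of all 92335 pairs. No scaling between the libraries is recorded, so each ratio was read against pairs of like pileup: the relative log2 ratio is the log2 ratio of Tle4cKO over WT minus its median among pairs of like summed pileup. The median relative log2 ratio of the 48 pairs was -0.02 (95% order-statistic interval -0.08 to 0.04). Over all pairs the median is 0 by construction. Of the 48 pairs, the relative log2 ratio was above 0 in 23 and below 0 in 25.

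Past a relative change of 1.5-fold lay 1 pair in each direction. A pair inside Mmp25 was higher in Tle4cKO, as 3.59% of all pairs were, and a pair inside Timp2 was lower, as 3.81% of all pairs were. At a smaller limit, a 25% excess of either library over the other in relative terms, 4 pairs were higher in Tle4cKO and 6 lower, beside 12.2% and 12.9% of all pairs. For each of the 48 pairs, the exact 95% Clopper-Pearson interval of its ratio held the median ratio of pairs of like pileup. Such intervals lay above that median in 0.688% and below it in 0.615% of all pairs. Just inside the 1.5-fold limit were pairs at Timp3 (1.41-fold lower), Mmp25 (1.39-fold lower), Mmp2 (1.37-fold lower and 1.41-fold higher) and Mmp9 (1.35-fold higher). The spread of like pairs narrowed as pileup rose. Its 5th to 95th percentile ran from -0.68 to 0.67 around pileups of 25 in WT and 18 in Tle4cKO, and from -0.32 to 0.30 around 89 and 64. The Mmp25 pair that was 1.39-fold lower, with 101 and 52, lay outside its range at -0.48. Both pairs past 1.5-fold were weak and lay at the edge of theirs.

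**Figure D3:**
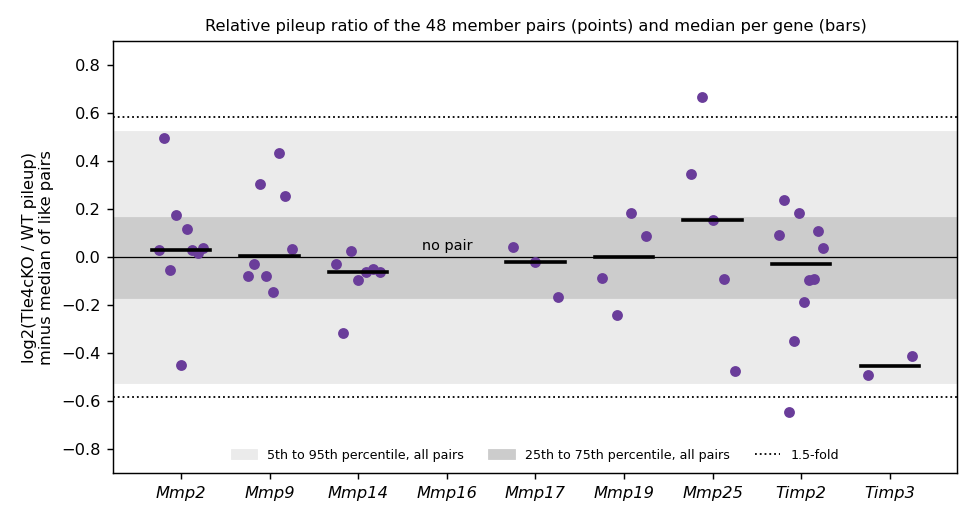
Relative log2 pileup ratio (Tle4cKO over WT, minus the median of pairs of like pileup) of the 48 pairs as points, with the median per gene as a bar; shaded bands run from the 25th to the 75th and from the 5th to the 95th percentile of all pairs and dotted lines the 1.5-fold limits. The Mmp9 pairs lie between -0.15 and 0.43, and the points outside the dotted lines are the Mmp25 pair at 0.67 and the Timp2 pair at -0.65. The bands pool weak and strong pairs, although strong pairs spread less.

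Positions of most paired peaks differed little. The summits of the pairs lay a median of 34.5 bp apart, against 44 bp over all pairs. The width in Tle4cKO was a median of 0.970 times that in WT, against 0.931 over all pairs. In 26 of the 48 pairs the Tle4cKO peak was the narrower one. The remaining shared peaks were cases in which 1 wide peak met 2 narrow ones, at Mmp2, Mmp17 and Mmp19. At Mmp2 the summits of such pairs lay 1580 bp and 639 bp apart. There the peak left unpaired had the summit closer to that of the wide peak, so these pairs join different summits.

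Mmp9 encodes gelatinase B, a secreted enzyme that digests gelatin and basement membrane collagen and that neutrophils and macrophages release. Its RefSeq span is chr2:164940326-164955850, and the table used here gives neither its strand nor its exons. Inside the gene therefore means inside that span, and which peak lies at a promoter of Mmp9 was not determined. WT had 8 peaks in the window and Tle4cKO had 9. With the overlap of 1 bp, the 8 WT peaks were all shared, and 1 weak Tle4cKO peak was found in that list only. When an overlap of at least 50% of both peaks was required, the pair whose summits lay 339 bp apart was no longer shared, and Mmp9 had 1 WT-only and 2 Tle4cKO-only peaks.

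The strongest regions had the same height as each other. The first peak (chr2:164935614-164936545 in WT), which ends 3781 bp below the low-coordinate end of Mmp9, reached a pileup of 121 in the WT library and 85 in Tle4cKO. Inside the gene, the peak at chr2:164942521-164943476 also had 121 and 85. The ratio of both was 0.702 (0.526 to 0.935), against 0.741 for pairs of like pileup. Their relative log2 ratio was -0.08.

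Weaker regions lay between these peaks and further into the gene. The peak at chr2:164938928-164939311, 1015 bp outside the gene, had pileups of 53 and 36, a relative log2 ratio of -0.03. At chr2:164940807-164941562, just inside the low-coordinate end of Mmp9, the pileups were 67 and 58, and the ratio of 0.866 (0.598 to 1.249) was above the 0.701 of like pairs. In the middle of the RefSeq span, the peak at chr2:164947757-164948608 had pileups of 46 and 28. That pair had the lowest relative log2 ratio at Mmp9, -0.15, and its Tle4cKO peak was the wider one, with 1131 bp against 852 bp.

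Next to it, at chr2:164949054-164949497, the pileups were 24 in WT and 22 in Tle4cKO, and the summits lay 339 bp apart. This pair had the highest relative log2 ratio at Mmp9, 0.43, and its ratio of 0.917 had a wide interval of 0.490 to 1.71. The Tle4cKO-only peak followed at chr2:164950174-164950560, with a width of 387 bp, a pileup of 17 and a distance of 677 bp to the nearest WT peak. Its pileup was at or above that of 45.6% of Tle4cKO peaks. Among Tle4cKO peaks of pileup 15 to 29 over the whole list, 7.03% were Tle4cKO-only.

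Towards the high-coordinate end, the peak at chr2:164952356-164953743 had pileups of 67 and 56 and a relative log2 ratio of 0.25. The last peak, at chr2:164960465-164962330, overlaps the low-coordinate end of Slc12a5, which encodes a potassium-chloride cotransporter. It had pileups of 40 and 28, and its summits in the libraries lay 1193 bp apart inside a peak that was 1866 bp wide in the WT library and 1835 bp wide in the other. Of the 8 Mmp9 pairs 4 were above and 4 below the median of like pairs, and their median relative log2 ratio was 0.004.

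**Figure D4:**
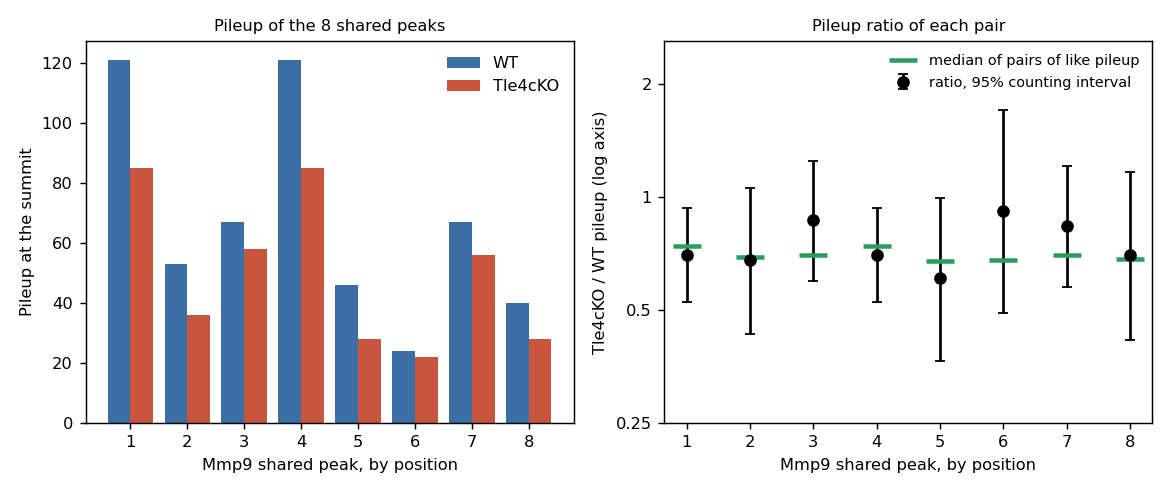
Left, summit pileup of the 8 shared Mmp9 peaks in order of position in WT (blue) and Tle4cKO (red); right, the ratio of each pair on a log axis with its 95% counting interval (black) and the median of pairs of like pileup (green). Ratios run from 0.609 to 0.917, and each interval holds the green mark.

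Mmp2, gelatinase A, is secreted mainly by stromal cells and cuts the same kind of substrates as gelatinase B. Its span is chr8:92827290-92853421. Both libraries had 10 peaks in the window, and all of them were shared. The highest lay at the high-coordinate end of Mmp2 towards Lpcat2, which encodes a lysophospholipid acyltransferase. There WT had peaks of 140 and 152 and Tle4cKO had 1 peak of 122 that is 3819 bp wide and overlaps both. The strongest peak wholly inside Mmp2, at chr8:92849448-92850196, had pileups of 122 and 93.

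The peak across the low-coordinate end of Mmp2, at chr8:92827083-92827972, was among the weaker ones, at 48 in the WT and 24 in the Tle4cKO library. Its ratio of 0.500 (0.293 to 0.832) was below the 0.683 of like pairs, a relative change of 1.37-fold, and the peak was 890 bp wide in WT and 573 bp in Tle4cKO. Further out, 6020 bp below the gene, a narrow peak had pileups of 24 and 23, 1.41-fold higher in relative terms. The other 7 pairs at Mmp2 had relative log2 ratios of -0.06 to 0.18. Among them, the pairs with summits 639 bp and 1580 bp apart join different summits, so their ratios do not compare the same site.

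Mmp14 encodes a membrane-anchored MMP with a transmembrane domain, which cuts collagen at the cell surface and activates the Mmp2 precursor with the help of Timp2. It had the largest covered share of the set with a flank of 10 kb and all peaks of the window counted. Its span is chr14:54431598-54442456, and each library had 8 peaks. At the promoter printed above, the peak reached 93 in the WT library and 53 in the Tle4cKO library. The ratio was 0.570 (0.399 to 0.807) against 0.709 for like pairs, 1.24-fold lower. The Tle4cKO peak was 249 bp wide and took in 56 of the 250 promoter bases, while the WT peak was 576 bp wide and took in all 250. The summits lay 107 bp and 99 bp after the start.

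Inside Mmp14 the pileups were 73 and 52, 112 and 77, and 137 and 101 from the start towards the end. At the high-coordinate end they were 147 and 111. The strongest peak of the window, with 168 and 133, overlaps Mrpl52, which encodes a mitochondrial ribosomal protein. Of the 7 pairs at Mmp14 6 were below the median of like pairs and 1 above, by small amounts apart from the promoter: the other 6 relative log2 ratios ran from -0.09 to 0.02. The WT-only peak (chr14:54447895-54448409) had a pileup of 37 and lay 297 bp from a Tle4cKO peak. The Tle4cKO-only peak (chr14:54443812-54444011) had a pileup of 27 and lay 238 bp from a WT peak. Counting peaks within 500 bp as shared therefore leaves Mmp14 without a list-only peak.

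Mmp16, another transmembrane MMP, was nearly without peaks over its 264408 bp (chr4:17853072-18117479). The WT peaks had pileups of 11 and 9, and the Tle4cKO peaks had 10, 11, 9 and 8. None of them overlapped a peak of the other list, and the nearest WT and Tle4cKO peaks lay 19615 bp apart. The lowest pileup in either list is 7, so these peaks are close to the limit of what was called. With pileups below 15 left out, Mmp16 had no peak in either library.

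Mmp17 encodes an MMP held at the membrane by a glycosylphosphatidylinositol anchor. Its open chromatin was concentrated at the low-coordinate end of its span, chr5:129584151-129611099. The peak across that end reached 131 in the WT library and 103 in the Tle4cKO library, a relative log2 ratio of 0.04. WT had 1 peak of 1741 bp there, and Tle4cKO had 2, 1 of 1123 bp and 1 of 328 bp with a pileup of 24. The next peaks inside had pileups of 62 and 42, and of 22 and 14. The 1 WT-only and 3 Tle4cKO-only peaks had pileups of 9 or 10, so the higher number of Tle4cKO peaks at Mmp17 (7 against 4) was made up of these weak peaks and the divided one.

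Mmp25, called leukolysin and known from neutrophils, encodes the other MMP of the set with such an anchor. Its span is chr17:23628315-23645269, and it had 5 shared peaks in each library. At its promoter, where the peaks also overlap Bicdl2, the pileups were 104 and 85, 0.16 in relative log2 terms, and both peaks took in all 250 bases printed above. The pair past 1.5-fold, at chr17:23635485-23636664 inside the gene, reached 20 in the WT library and 22 in the Tle4cKO library. It was the pair of the 48 in which Tle4cKO had the higher value. Its ratio was 1.10 (0.573 to 2.12) against 0.692 for like pairs, a relative change of 1.59-fold. The most distant peak, 7999 bp beyond the start and inside Bicdl2, had pileups of 101 and 52. Its ratio of 0.515 (0.361 to 0.726) was 1.39-fold lower than in like pairs, so that the pairs at Mmp25 spread from -0.48 to 0.67.

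Mmp19 encodes a secreted MMP that cuts basement membrane proteins. Its span is chr10:128790910-128800827. The peak across its low-coordinate end reached 107 in the WT library and 66 in the Tle4cKO library, a ratio of 0.617 (0.447 to 0.846) against 0.730 for like pairs, 1.18-fold lower. In WT a second peak with a pileup of 59 followed, and in Tle4cKO 1 peak of 1933 bp overlapped both. Inside the gene a further peak had pileups of 69 and 55. The strongest peaks of the window lay outside Mmp19. One, 9277 bp below it, had 199 and 154, and the other, which overlaps Tmem198b and Dnajc14, had 190 and 166. The relative log2 ratios of the 4 pairs were -0.24 to 0.19.

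Timp2, an inhibitor that also takes part in activating the Mmp2 precursor, had the most peaks of the set, 15 in WT and 12 in Tle4cKO. Its span is chr11:118301061-118355411. At the promoter the pileups were 109 and 75, a relative log2 ratio of -0.09. The strongest peak lay 7291 bp beyond the start, with 185 and 164. The pair past 1.5-fold, at chr11:118318482-118319313 inside the gene, reached 27 in the WT library and 12 in the Tle4cKO library. Its ratio was 0.444 (0.205 to 0.907) against 0.696 for like pairs, a relative change of 1.57-fold. The 10 pairs of Timp2 were split evenly around like pairs, 5 above and 5 below.

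Among the list-only peaks of Timp2, the strongest was a WT-only peak at chr11:118360815-118361052, with a pileup of 40, a width of 238 bp and a distance of 1699 bp to the nearest Tle4cKO peak. It was the highest list-only peak of the 9 genes. Of the other 4 WT-only peaks, 3 lay beyond the low-coordinate end of Timp2 with pileups of 9, 11 and 15, near a Tle4cKO-only peak of 9, and 1 lay inside the gene with 8. The strongest Tle4cKO-only peak of Timp2, inside the gene, had a pileup of 12.

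Timp3, an inhibitor that binds to the extracellular matrix and also blocks ADAM proteases, lies inside the span of Syn3, a synapsin gene. Its span is chr10:86300412-86349505. It had 4 peaks in WT and 3 in Tle4cKO, and its promoter peak was weak, with pileups of 18 and 11. The WT promoter peak was 961 bp wide and took in all 250 bases printed above, and the Tle4cKO peak was 487 bp wide and took in 75. The strongest peak, at chr10:86295602-86296689 before the start, had 61 and 30. Its ratio of 0.492 (0.307 to 0.773) was 1.41-fold lower than in like pairs, and that of the promoter pair was 1.33-fold lower. Timp3 was the gene of the set with the lowest median relative log2 ratio, -0.45, over 2 pairs, and its list-only peaks had pileups of 10 to 12.

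Other genes of the protease system were compared in the same way, and list sums count a peak once per list. The 8 MMP and TIMP genes outside both the set and the chromosome 9 cluster had 4 WT-only of 33 WT peaks (12.1%) and 4 Tle4cKO-only of 35 (11.4%). Over the whole lists these shares were 27.1% and 23.5%. Mmp23 had 2 peaks that were WT-only and 0 that were Tle4cKO-only, while Mmp11, Mmp15, Mmp21 and Mmp24 each held 0 and 1, and Mmp28 and Timp1 each held 1 and 0. The median relative log2 ratio of that list was 0.007 over 29 pairs, with 1 higher and 3 lower past 1.5-fold, beside the 3.59% and 3.81% of all pairs. In the chromosome 9 cluster of 10 genes, 11 of 36 WT peaks (30.6%) and 10 of 37 Tle4cKO peaks (27.0%) were list-only, beside the same 27.1% and 23.5%. Its median relative log2 ratio was -0.16 over 24 pairs, with 4 lower and 0 higher past 1.5-fold, beside 3.81% and 3.59% of all pairs. Mmp10 had 1 such WT peak and 2 such Tle4cKO peaks, Mmp12 4 and 3, Mmp13 4 and 3, and Mmp1a 1 and 0. These counts differed by 1 at 9 of the 10 cluster genes, 5 leaning to WT and 4 to Tle4cKO, beside 32.6% and 22.8% of all protein-coding genes. No difference between the cluster and the 9 dispersed genes was tested.

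Of 16 genes for activation, inhibition and clearance of MMPs, 5 leaned to WT-only peaks and 7 to Tle4cKO-only ones. Of all protein-coding genes 32.6% and 22.8% did. In the 16 windows 21 of 148 WT peaks (14.2%) and 24 of 156 Tle4cKO peaks (15.4%) were list-only, beside 27.1% and 23.5% of all peaks. Reck, a membrane inhibitor of MMPs, had 4 peaks in the WT list alone and 1 in the Tle4cKO list alone, and Cd44, a receptor that docks Mmp9 at the cell surface, held 5 and 8. Lrp1, which takes up protease complexes, held 3 and 1, while Plg, the plasminogen gene, and Tgfb1, which encodes a growth factor, each held 0 and 2. The median relative log2 ratio was 0 over 123 pairs, with 4 higher and 1 lower past 1.5-fold, beside 3.59% and 3.81% of all pairs. Of 10 ADAM and ADAMTS genes, which encode related proteases, 6 leaned to WT-only peaks and 2 to Tle4cKO-only ones. List-only were 20 of 94 WT peaks (21.3%) and 12 of 91 Tle4cKO peaks (13.2%), beside the same 27.1% and 23.5%. Adam19 held 6 and 2, Adam10 5 and 3, and Adam12 and Adam15 each 0 and 1, while Adam9, Adam17, Adamts1 and Adamts5 each had 1 more WT-only than Tle4cKO-only peak. The median relative log2 ratio was 0 over 72 pairs, with 0 higher and 5 lower past 1.5-fold, beside the same 3.59% and 3.81%.

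Marker genes were checked by the highest peak within 1 kb of a gene end. A gene without such a peak counts as 0 even where its window held peaks further from the ends. All 10 macrophage markers had such a peak in both libraries, with a summed pileup of 1489 in WT and 1198 in Tle4cKO (ratio 0.805). Neutrophil markers had one at 7 of 10 genes in WT and 5 of 10 in Tle4cKO, summing to 241 and 176 (0.730), with Mpo, Ngp and Camp at 0 in both. The highest peaks in WT and Tle4cKO still reached 71 and 46 in the Mpo window and 79 and 46 in the Ngp window, while Camp had none. Over all 33 pairs in the windows of the neutrophil markers, the median relative log2 ratio was 0.16, with 2 higher and 0 lower past 1.5-fold. Over the 65 pairs of the macrophage markers it was -0.03, with 0 higher and 2 lower. Of all pairs 3.59% were higher and 3.81% lower past that limit. Fibroblast and muscle markers had one at 6 and 7 of 10, summing to 314 and 202 (0.643), with Col3a1, Dcn and Lum at 0 in both. Endothelial markers had one at 4 and 2 of 6, summing to 318 and 111 (0.349); Pecam1 supplied 171 of the WT sum and 0 in Tle4cKO, although its window held a Tle4cKO peak of 132. Epithelial markers had one at 4 of 7 in both, with 268 and 198 and with Krt20, Cdx2 and Muc2 at 0. Eosinophil markers had one at 2 of 4 in both, with 116 and 44 and with Epx and Prg2 at 0; Siglecf supplied 101 and 30 of these sums, although the highest Tle4cKO peak of its window reached 75. The median relative log2 ratio over the 16 pairs of the eosinophil markers was -0.15, with 0 higher and 3 lower. T and B cell markers had one at 6 of 8 in both, with 445 and 281 and with Cd3g and Cd8a at 0, although the highest peaks of the Cd3g window reached 144 and 126. Over 40 pairs of the fibroblast and muscle markers the median relative log2 ratio was -0.11, with 1 higher and 2 lower. It was -0.02 over 39 endothelial pairs (2 higher, 2 lower) and -0.02 over 23 epithelial pairs (2 and 1). For T and B cell markers it was 0.01 over 40 pairs (1 and 2). The summed pileups are not scaled between the libraries. The 9 MMP and TIMP genes themselves summed to 835 and 641 (0.768). The part of other cell types in the values at the 9 genes was not tested.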

How the data were processed

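ATAC-seq of sorted colonic macrophages gave 1 peak list per genotype, each from 1 library of 2 pooled mice. The deposited pileup at each summit is a signal of whole numbers, at least 7, per the file headers. Tools that the submitters' processing notes list, without roles, are HOMER 4.7.2, edgeR 3.28.1, featureCounts 1.5.0, MACS2 2.1.1, Bowtie2 2.2.5 and cutadapt 1.14, with the build mm10. Depth is unknown, and how peaks were called, reads shifted for Tn5, duplicates handled or libraries scaled is not given in the sources used here; a deeper library yields higher pileups and more weak peaks. Positions count from 1 and include both ends; no other value of the deposited lists was used.

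Gene spans came from a RefSeq table of GRCm38.p6, in which all 9 genes and all 99 comparison genes matched. Peaks were shared from an overlap of 1 bp. Pairs were each other's overlapping peak of highest pileup, ties going to the larger overlap, and like pairs came from 50 groups of equal size by summed pileup. A pair past 1.5-fold relative to like pairs was counted as changed. A summit pileup is a maximum, so its counting interval is approximate. Steps were tested on simulated data. Python 3.11.15, pandas 2.3.3, NumPy 2.4.6, SciPy 1.17.1 and matplotlib 3.10.9 were used.

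Named were the 9 genes with Mmp9 peak by peak and, at the others, the strongest peak, the peak at the start or end of the gene, the strongest list-only peaks, those with a pileup of at least 30 and pairs past 1.5-fold; of each of 4 protease lists, up to 4 genes with the largest difference in list-only peaks, ties by symbol, with the genes tied with them named or counted. Other peaks were chosen after their values were seen. Macrophage, neutrophil, fibroblast and muscle, endothelium, colon epithelium, eosinophil, and T and B cell markers were checked. The members and lists were chosen with earlier results of these data known. Alternatives were the flank, the overlap rule, the minimum pileup, lists of equal length, the grouping of pairs, the fold and the nearest gene. No test between genotypes was possible with 1 library each.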

Additional observations from a re-analysis of the deposited data

How the results depend on the processing

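Of the 4 summary values, the median relative log2 ratio moved least, from -0.06 with a single median over all pairs to -0.003 with no flank or with peaks nearest to the 9 genes. With peaks below a pileup of 15 left out, the WT-only share was 5.66%, the Tle4cKO-only share 4.08% and the number of pairs past 1.5-fold 0, since the list-only peaks and the changed Timp2 pair are weak. With the 100000 strongest peaks of each list the shares were 5.66% and 9.09%. Whole-list shares under these alternatives were not worked out as single values. By pileup, 25% of all WT and 7.03% of all Tle4cKO peaks at 15 to 29 were list-only. At 30 to 59 it was 7.56% and 1.67%, and at 60 or more 0.811% and 0.150%. The number of pairs past the fold was 4 with a flank of 50 kb, which takes in more pairs. It was 10 of 48 when a 25% excess was enough, a limit at which 12.2% of all pairs were higher and 12.9% lower. The list-only shares under the other alternatives stayed within the counting intervals in the text. The Mmp25 and Timp2 pairs past 1.5-fold kept their direction wherever they could be computed, and the Mmp25 pair dropped to 0.55 with the pileup minimum and to 0.57 with a single median, below the 1.5-fold limit. No paired analysis was possible because each genotype has 1 library, and no library could be left out for the same reason. With an overlap of at least 50% of both peaks, the list-only counts (WT and Tle4cKO) became 1 and 2 at Mmp9, 2 and 2 at Mmp2, 2 and 1 at Mmp19 and 2 and 2 at Mmp14. Depth is unknown, and counting error alone gives ratio intervals that span more than 2-fold at the weak Timp2 pair past 1.5-fold (0.205 to 0.907) and also at the stronger promoter pair of Mmp14 (0.399 to 0.807).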
